A study of Mus musculus with 16 samples.

Results

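The EGF receptor family and its ligands were followed in the colonocyte transcriptome of C57BL/6 mice given either of 2 diets for 3 weeks. The members were 10 genes, each taken as the row of the count table that carries its symbol, out of 54392 symbols in all. They were the receptor genes Egfr, Erbb2 and Erbb3, the receptor regulator Lrig1, and the ligand genes Areg, Ereg, Hbegf, Tgfa, Btc and Epgn. All 10 were found, and 9 passed the filter on low counts; Epgn did not. The diets were corn oil with cellulose (9 libraries) and fish oil with pectin (7 libraries). They differ in both fat and fibre, so the part of each cannot be told apart. The labels name no allele, transgene, age or other agent, and call the cells colonocytes, while the extraction text speaks of RNA from the colon.

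The EGF receptor and its relatives are receptor tyrosine kinases that pair on ligand binding and signal to the RAS, ERK and PI3 kinase pathways. Their ligands are made as membrane-anchored precursors and are cut from the cell surface by ADAM proteases before they act on the same cell or its neighbours. In the intestinal epithelium this signalling drives crypt cell division, cell migration and repair after injury, and feedback inhibitors keep it in check.

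Library totals were 13996288 to 19331984 counts with corn oil/cellulose and 16212831 to 19512755 with fish oil/pectin. The prefix GC marked 10 library names, 5 of each diet, and was missing from 6 (4 fed corn oil/cellulose and 2 fed fish oil/pectin), so the fit carried this name form as a covariate. The numbers in the library names also fell into a lower and a higher series, and the higher held corn oil/cellulose libraries only. The main fit had no term for the series. The label colonocyte was checked against 13 epithelial markers, whose summed level was 22232 to 26982 CPM (library counts scaled to a common total) with corn oil/cellulose and 22603 to 38203 CPM with fish oil/pectin. Of markers of other cells, 6 smooth muscle genes summed to under 1 CPM and 8 B and plasma cell genes to under 2 CPM in every library. The 10 mast cell and ILC2 markers summed to 74.4 to 125 CPM with corn oil/cellulose and 44.7 to 90.7 CPM with fish oil/pectin, and the 12 macrophage and myeloid markers to 42.3 to 55.3 and 48.2 to 89.4 CPM. Most of the macrophage and myeloid sum was Cd14, which averaged 37.9 CPM with corn oil/cellulose and 47.5 CPM with fish oil/pectin. The 9 fibroblast markers summed to 9.95 to 25.2 and 8.46 to 13.0 CPM, the 6 endothelial to 6.87 to 12.5 and 3.96 to 11.7 CPM and the 4 glial to 1.55 to 2.82 and 0.804 to 1.73 CPM. Single members of these lists were at 0 in all 16 libraries, namely Cnn1 (smooth muscle), Sox10 (glia), Cdh5 (endothelium) and Il5 (ILC2), while others of the endothelial, glial and ILC2 lists were detected. The 13 T and NK cell markers summed to 31.5 to 67.5 CPM in the GC-named corn oil/cellulose libraries, 18.2 to 40.3 CPM in the GC-named fish oil/pectin libraries and 10.9 to 18.01 CPM in the 6 others. Fish oil/pectin library 7 held Hoxd13, a marker of the distal colon, at 0.631 CPM, and library 1 at 23.9 CPM, both below the range of the corn oil/cellulose libraries (25.4 to 100 CPM).

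Per length of annotated exon, the partner receptors were the most abundant members and the EGF receptor itself was much lower. Mean RPKM (CPM divided by exon length in kilobases) with corn oil/cellulose was 64.3 ± 9.93 (SD, n = 9) for Erbb3, the neuregulin receptor with a weak kinase, and 60.8 ± 5.91 for Erbb2, which has no known soluble ligand and serves as the favoured partner. These 2 did not differ beyond their spread, and with fish oil/pectin their order was the other way round, at 47.3 ± 9.84 and 50.7 ± 8.47 RPKM (SD, n = 7). Lrig1, a membrane protein that promotes the degradation of the receptors and marks crypt progenitor cells, followed at 30.6 ± 2.81 RPKM with corn oil/cellulose. Areg (amphiregulin) was the highest ligand at 16.6 ± 9.69 RPKM. The exon length was that of all annotated exons of a gene merged, which can exceed the length of its transcripts. Before division by it, mean CPM with corn oil/cellulose was 50.5 for Egfr, 41.7 for Tgfa, 30.3 for Hbegf and 20.2 for Areg. The order of these genes thus depends on the length used.

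Tgfa (transforming growth factor alpha) at 6.43 ± 0.454 RPKM and Hbegf (heparin-binding EGF-like growth factor) at 6.28 ± 2.25 RPKM did not differ beyond their spread. Egfr, at 4.46 ± 0.527 RPKM, was below Tgfa. Btc (betacellulin) followed at 1.49 ± 0.171 RPKM and Ereg (epiregulin) at 0.515 ± 0.302 RPKM. Over all 16 libraries Erbb3 and Erbb2 averaged at the 93.0 and 92.9 percentiles of the tested genes, Egfr at the 44.1 percentile and Ereg at the 13.5 percentile. Epgn (epigen) was close to undetected, with 0 to 2 counts per library with corn oil/cellulose and 0 to 5 counts with fish oil/pectin, and was given no test.

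The diet comparison asked which members differed between fish oil/pectin and corn oil/cellulose. All 3 receptor genes and the ligands Tgfa and Btc fell with fish oil/pectin, by 0.23 to 0.43 on the log2 scale, and no member rose. Lrig1, Areg, Ereg and Hbegf did not pass the test. The count was 5 of 9 tested members lower and 0 higher (edgeR quasi-likelihood test, Benjamini-Hochberg adjusted p below 0.05 over 14321 genes). Over all genes tested, 41.7% passed, 21.7% higher and 20.1% lower. The median log2 fold change was -0.25 over the 3 receptor genes and Lrig1 together and -0.10 over the 5 tested ligands, against -0.00433 over all genes tested. Within GC-named libraries Egfr, Erbb3, Lrig1, Tgfa and Btc fell, 5 of 9 members, where 45% of all genes passed (23.1% higher, 21.8% lower). Within the others 0 members and 0 of 14321 genes passed in the joint edgeR fit, where 1 member, Erbb2, and 2385 genes had an unadjusted p below 0.05. These 6 libraries fitted alone gave 900 genes and 1 member. In bulk RNA, fewer cells of a type and less RNA per cell cannot be told apart.

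Egfr, which binds all the ligands described here, lay between 42.3 and 57.7 CPM with corn oil/cellulose (median 52.1) and between 33.6 and 59.3 CPM with fish oil/pectin (median 37.2). The diets overlapped because fish oil/pectin libraries 1 and 2, the only ones of that diet without the GC prefix, stood at 51.6 and 59.3 CPM, while the other 5 lay at 33.6 to 39.7 CPM, below every corn oil/cellulose library. The log2 fold change was -0.23 ± 0.07 (SE, edgeR adjusted p = 0.0147). Within GC-named libraries it was -0.35 ± 0.07 (edgeR adjusted p = 0.000890) and in the others -0.00871 ± 0.10 (adjusted p = 0.973). The difference between the forms was -0.34 and did not pass (edgeR adjusted p = 0.0859), and 8.41% of all genes passed that test. Without the name form term the diet effect on Egfr was -0.28 and did not pass (edgeR adjusted p = 0.0729).

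Erbb2 lay between 268 and 355 CPM with corn oil/cellulose (median 319) and between 217 and 344 CPM with fish oil/pectin (median 266). Of the 7 fish oil/pectin libraries 5 were below every corn oil/cellulose library, and libraries 3 and 4 of that diet, at 292 and 344 CPM, were inside its range. The log2 fold change was -0.28 ± 0.09 (SE, edgeR adjusted p = 0.0187), or 0.823-fold. It was -0.19 ± 0.10 in GC-named libraries (edgeR adjusted p = 0.152) and -0.46 ± 0.15 in the others (adjusted p = 0.201). Without fish oil/pectin library 1, the lowest for this gene, it was -0.24 and did not pass (edgeR adjusted p = 0.0602). In the 14 libraries with Hoxd13 inside the corn oil/cellulose range it was -0.18 and did not pass (edgeR adjusted p = 0.115). Egfr, Erbb3, Tgfa and Btc passed in those 14 libraries (edgeR adjusted p of 0.00575 to 0.0328), as did 5218 of 14454 genes.

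Erbb3 also fell. Its level was 309 to 500 CPM with corn oil/cellulose (median 390) and 183 to 367 CPM with fish oil/pectin (median 288), and all 7 fish oil/pectin libraries lay below the corn oil/cellulose median. The means were 387 ± 59.8 CPM (SD, n = 9) and 285 ± 59.2 CPM (SD, n = 7). The log2 fold change was -0.40 ± 0.11 (SE, edgeR adjusted p = 0.00668), or 0.760-fold. It was -0.40 ± 0.13 in GC-named libraries (edgeR adjusted p = 0.0230) and -0.39 ± 0.19 in the others, where it did not pass (adjusted p = 0.304). The lowest value, 183 CPM, was in fish oil/pectin library 7, the library with Hoxd13 near 0.

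Lrig1 lay between 146 and 195 CPM with corn oil/cellulose and between 113 and 205 CPM with fish oil/pectin. Its log2 fold change of -0.12 ± 0.09 did not pass (SE, edgeR adjusted p = 0.272). In GC-named libraries it fell by 0.29 (edgeR adjusted p = 0.0125), whereas in the others both fish oil/pectin libraries, at 195 and 205 CPM, stood above all 4 corn oil/cellulose libraries (167 to 188 CPM), with a log2 fold change of 0.18 (adjusted p = 0.456). The difference between the forms, -0.46, did not pass (edgeR adjusted p = 0.0571). It passed without corn oil/cellulose library 7 (-0.51, adjusted p = 0.0478), without fish oil/pectin library 6 (-0.52, adjusted p = 0.0429) and without fish oil/pectin library 7 (-0.40, adjusted p = 0.0468).

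**Figure D1:**
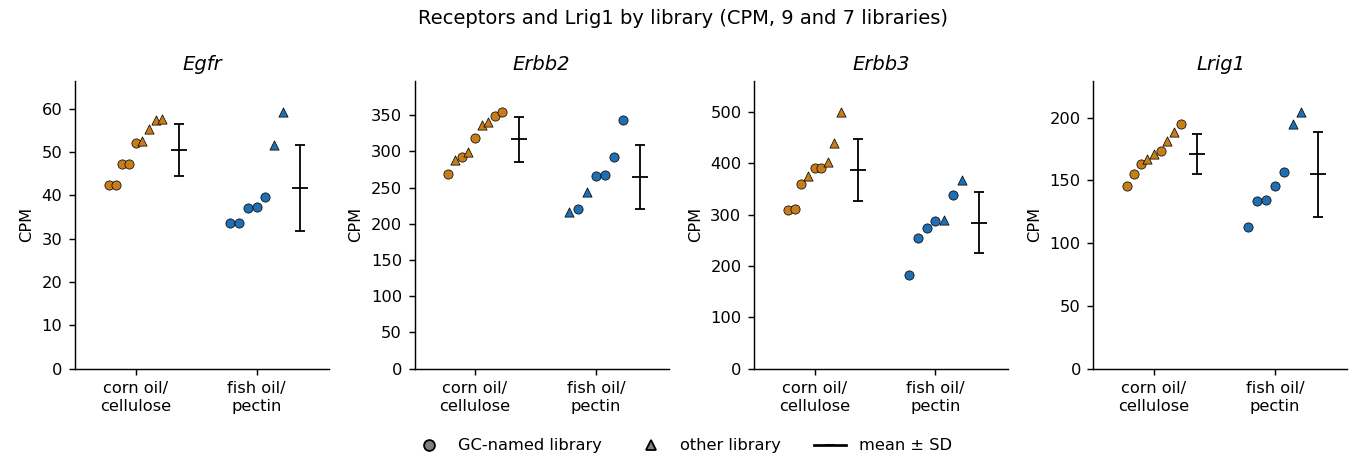
CPM (vertical axis) of Egfr, Erbb2, Erbb3 and Lrig1 in each corn oil/cellulose (n = 9) and fish oil/pectin (n = 7) library; circles are GC-named libraries, triangles the others, and bars the mean ± SD. For Egfr the 5 GC-named fish oil/pectin libraries lie at 33.6 to 39.7 CPM, below all others, while the 2 triangles of that diet lie at 51.6 and 59.3 CPM.

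Among the ligands, Tgfa separated the diets. This ligand binds the EGF receptor with high affinity. Its levels with corn oil/cellulose were 41.6, 39.5, 39.2, 45.4, 39.5, 43.1, 46.1, 37.7 and 43.4 CPM in libraries 1 to 9. With fish oil/pectin they were 34.5, 37.0, 36.3, 35.0, 28.9, 26.1 and 28.2 CPM in libraries 1 to 7. The highest fish oil/pectin value, 37.0 CPM, was just below the lowest corn oil/cellulose value, 37.7 CPM, and Tgfa was the only tested member whose diets did not overlap. Over all genes tested, 0.999% had every fish oil/pectin library lower in this way and 2.35% every one higher. The means were 41.7 ± 2.95 CPM (SD, n = 9) and 32.3 ± 4.41 CPM (SD, n = 7), and the log2 fold change was -0.36 ± 0.08 (SE, edgeR adjusted p = 0.00173). It was -0.44 in GC-named libraries (edgeR adjusted p = 0.000858) and -0.21 in the others (adjusted p = 0.397), and the diets did not overlap within either form. Within GC-named libraries Tgfa and Egfr were the members with every fish oil/pectin library lower, as were 13.8% of all genes.

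Btc, a ligand of the EGF receptor and of ERBB4, was low and also fell. It lay between 5.46 and 8.05 CPM with corn oil/cellulose (median 6.92; 88 to 161 counts per library) and between 3.24 and 6.07 CPM with fish oil/pectin (median 4.71; 50 to 110 counts). Every fish oil/pectin library was below the corn oil/cellulose median and 4 of 7 were below its lowest library. The log2 fold change was -0.43 ± 0.11 (SE, edgeR adjusted p = 0.00627), or 0.742-fold, with -0.51 in GC-named libraries (adjusted p = 0.00678) and -0.29 in the others (adjusted p = 0.444).

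Areg, Ereg and Hbegf, the ligands known to be induced quickly by growth factors and injury, did not pass the test for diet and spread widely within each diet. Areg was 8.70 to 47.6 CPM with corn oil/cellulose (median 18.8) and 11.7 to 36.7 CPM with fish oil/pectin (median 21.6), with a log2 fold change of -0.00336 ± 0.19 (SE, edgeR adjusted p = 0.991). Ereg was 1.21 to 5.27 CPM and 1.16 to 4.76 CPM (21 to 83 counts per library in both diets), with a log2 fold change of -0.01 ± 0.27 (adjusted p = 0.976). Hbegf was 17.5 to 52.7 CPM and 21.9 to 46.2 CPM, with a log2 fold change of -0.10 ± 0.15 (edgeR adjusted p = 0.627). The standard errors, 0.15 to 0.27, were larger than those of the receptors (0.07 to 0.11), so falls of the size seen for Tgfa were less well resolved in these 3 genes. Corn oil/cellulose library 7 held the highest level of all 3, and without it the log2 fold changes were 0.19 for Areg, 0.24 for Ereg and 0.00757 for Hbegf, none of which passed.

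**Figure D2:**
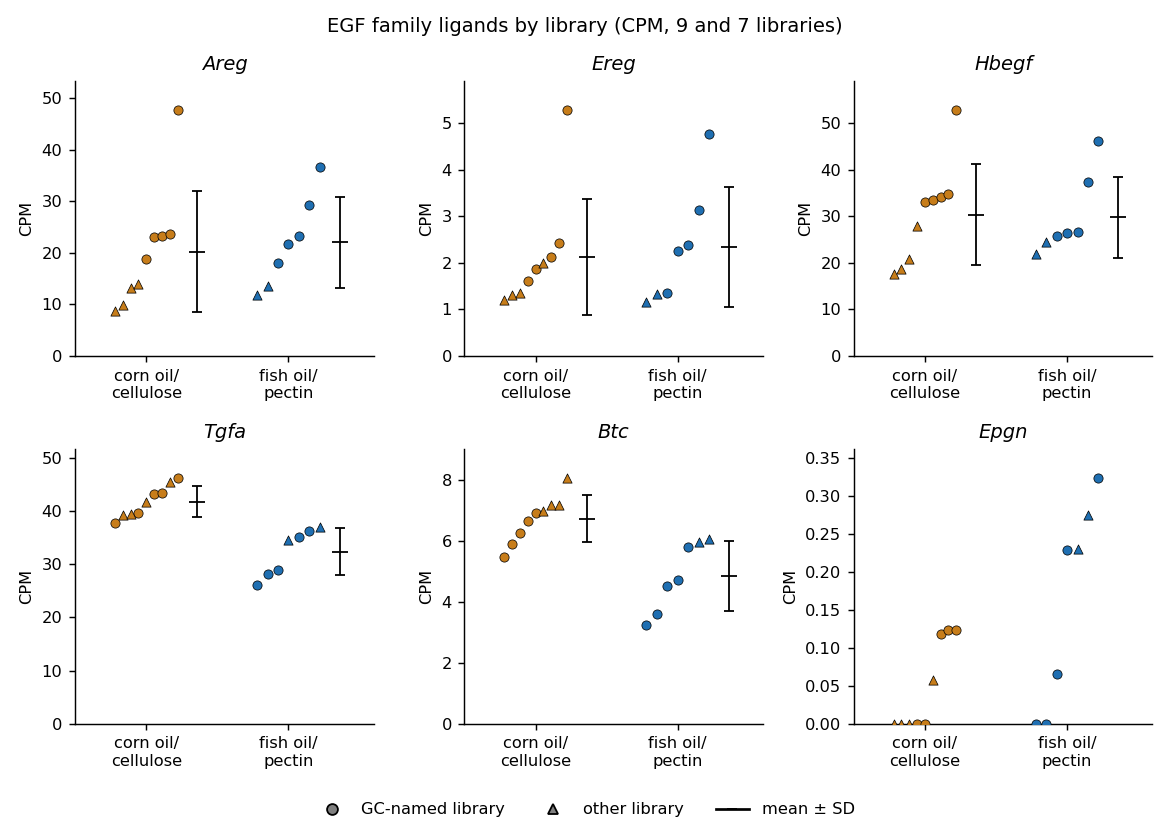
CPM (vertical axis, a scale of its own per panel) of the 6 ligand genes in each library; circles are GC-named libraries, triangles the others, and bars the mean ± SD (not drawn for Epgn). Tgfa shows no overlap between diets (lowest corn oil/cellulose 37.7, highest fish oil/pectin 37.0 CPM), whereas Areg spans 8.70 to 47.6 and 11.7 to 36.7 CPM.

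The falls were next read against exon length, since the diet effect over all genes followed it. Genes with 1 to 2 kb of exon had a median log2 fold change of 0.22 with 3.93% called lower, and genes over 8 kb a median of -0.24 with 52.2% called lower. Egfr, with 11326 bp, sat at the median of its length class (-0.23 against -0.24). Once each library's trend on exon length was removed, its log2 fold change was 0.02 and did not pass (edgeR adjusted p = 0.830). Erbb2, with 5210 bp, lay under the 25th percentile of its class (-0.28 against -0.23), but did not pass after removal (-0.20, edgeR adjusted p = 0.107).

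Erbb3, Tgfa and Btc kept their calls. Erbb3 (6016 bp) and Tgfa (6490 bp) compare with a class median of -0.11 and a 25th percentile of -0.28, and Btc (4520 bp) with a median of -0.00529 and a 25th percentile of -0.18. After removal their log2 fold changes were -0.29 (edgeR adjusted p = 0.0362), -0.24 (adjusted p = 0.0128) and -0.40 (adjusted p = 0.0111). With removal in the GC-named libraries alone, Erbb3 did not pass (-0.26, edgeR adjusted p = 0.169). Tgfa (adjusted p = 0.0424) and Btc (adjusted p = 0.0433) did. Areg, the shortest member at 1215 bp, was at -0.00336 in a class whose median was 0.22, and stood at -0.19 after removal (adjusted p = 0.486). The origin of the length trend was not tested.

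**Figure D3:**
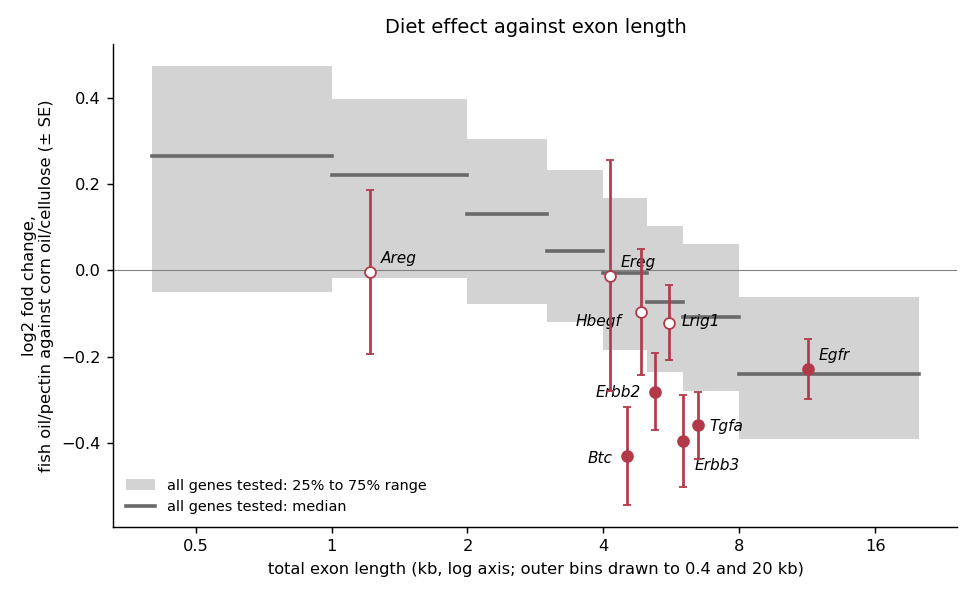
Log2 fold change (fish oil/pectin against corn oil/cellulose, ± SE) of the 9 tested members against total exon length in kb on a log axis; filled points passed the test, grey boxes span the 25% to 75% range of all tested genes per length class and dark lines their medians. Egfr lies on the median of its class (-0.24), and Btc, Tgfa, Erbb3 and Erbb2 lie below the grey boxes.

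Markers of some other cells moved with the diet as well. Of 11 tested T and NK cell markers 8 were lower with fish oil/pectin and 0 higher, with a median of -1.02, and 6 of 13 epithelial markers were higher and 0 lower. Over all genes 21.7% were higher and 20.1% lower. The epithelial list had a median exon length of 2195 bp, and of genes with 2 to 3 kb 33.3% were higher and 6.56% lower. The T and NK cell list had 1815 bp, and of genes with 1 to 2 kb 39.1% were higher and 3.93% lower. The part of exon length in these marker counts was not tested. T and NK cell markers had a median of -1.36 in the GC-named libraries and -0.02 in the others, and epithelial markers 0.22 and -0.03. The 3 mast cell and ILC2 markers and 1 glial marker tested were lower. Of 9 fibroblast markers only Pdgfrb and Thy1 were tested, and both were lower. Col1a1, Col3a1, Dcn and the rest of that list did not pass the filter. Pdgfrb was at -0.77 in the GC-named libraries and -0.18 in the others, and Thy1 at -1.69 and 0.47. Of 7 macrophage and myeloid markers 1 was higher (Cd14) and 1 lower (Lyz2), and of 2 endothelial markers 0 passed. A score of non-epithelial markers was 1.78 to 2.37 in the GC-named corn oil/cellulose libraries and 1.16 to 1.37 in the GC-named fish oil/pectin libraries, without overlap. With this score in the model 0 of 9 members passed in edgeR, and 2 of 14542 genes passed in all (3116 at an unadjusted p below 0.05). The log2 fold changes then ran from -0.09 for Egfr to -0.36 for Btc among the 5 called members, with -0.28 for Tgfa. Within GC-named libraries the score and the diet cannot be told apart. Of the 4 corn oil/cellulose and 2 fish oil/pectin libraries without the prefix, where the score was 0.876 to 1.20 and 0.961 to 0.976, Tgfa, Btc, Erbb2 and Erbb3 were lower in both fish oil/pectin libraries than in all 4 of the other diet, as were 16.7% of all genes, and Lrig1 was higher, as were 18.1%.

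**Figure D4:**
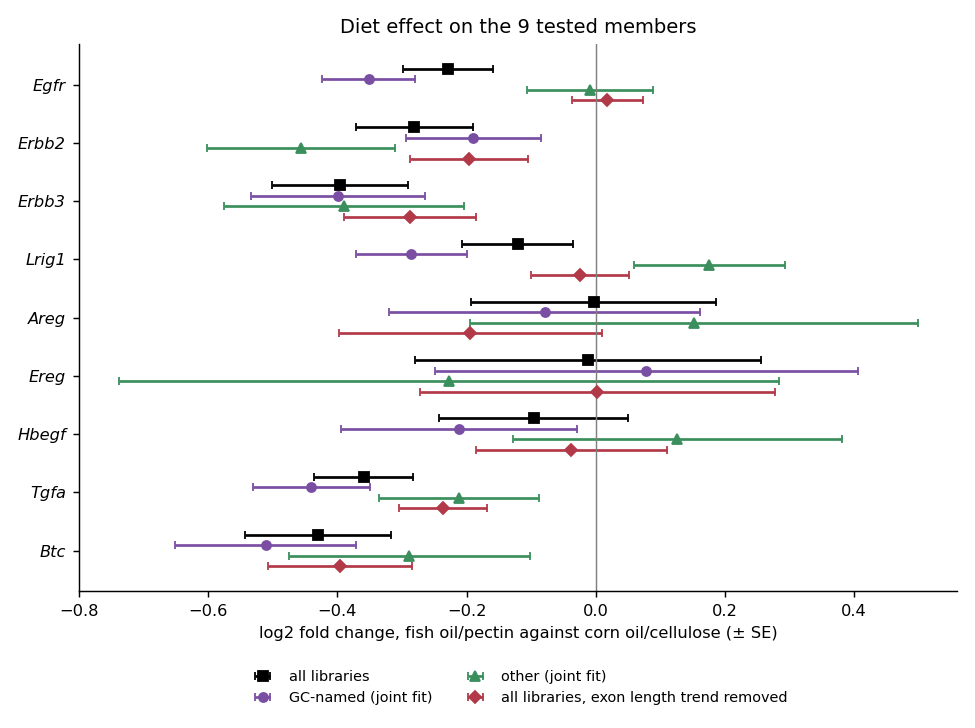
Log2 fold change (horizontal axis, fish oil/pectin against corn oil/cellulose, ± SE) of each tested member over all libraries, within GC-named libraries, within the others, and over all libraries after removal of the exon length trend. Tgfa, Btc, Erbb3 and Erbb2 are below 0 in all 4 estimates, while Egfr is near 0 in the other libraries (-0.00871) and after removal (0.02).

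Areg, Ereg and Hbegf differed between the name forms of the libraries. Adjusted for diet, Areg was 2.24-fold, Ereg 1.97-fold and Hbegf 1.61-fold higher in the GC-named libraries. No source used here says what the prefix means. Areg in the 10 GC-named libraries was 17.98 to 47.6 CPM and in the 6 others 8.70 to 13.98 CPM. Areg was the only member whose forms did not overlap, and over all genes 4.13% had every GC-named library higher and 4.94% every one lower. The log2 difference was 1.16 ± 0.20 for Areg (SE, edgeR adjusted p = 0.000401), 0.98 ± 0.29 for Ereg (adjusted p = 0.0119) and 0.69 ± 0.15 for Hbegf (adjusted p = 0.00205). Hbegf overlapped slightly, at 25.7 to 52.7 and 17.5 to 27.8 CPM, and Ereg more so, at 1.36 to 5.27 and 1.16 to 1.98 CPM.

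Egfr (-0.41, edgeR adjusted p = 0.000343), Erbb3 (-0.29, adjusted p = 0.0374), Lrig1 (-0.27, adjusted p = 0.0185) and Btc (-0.32, adjusted p = 0.0304) were lower in the GC-named libraries, and Erbb2 (0.10) and Tgfa (-0.07) did not pass. In all, 7 of 9 members differed between the forms, 3 higher and 4 lower, against 40.5% of all genes, 20.2% higher and 20.3% lower. Without fish oil/pectin library 2 the count was 4, since Erbb3, Lrig1 and Btc did not pass. In the corn oil/cellulose libraries alone Areg (1.26, edgeR adjusted p = 0.0143), Hbegf (0.83, adjusted p = 0.00825) and Egfr (-0.27, adjusted p = 0.0154) still differed, and Ereg did not pass (0.86, adjusted p = 0.0967). T and NK cell markers were higher in the GC-named libraries for 9 of 11 genes, with a median difference of 1.85 on the log2 scale. Transcripts of the Y chromosome were present in all 6 libraries without the prefix and in 3 of the 10 GC-named. The part of either in the Areg, Ereg and Hbegf difference was not tested. By diet, Y chromosome transcripts were present in 6 of 9 corn oil/cellulose and 3 of 7 fish oil/pectin libraries. With sex, read from these transcripts, as a covariate, 5593 of 14542 genes passed for diet. Egfr, Erbb2, Erbb3, Tgfa and Btc were still among them (edgeR adjusted p of 0.00292 to 0.0307).

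Areg and Hbegf moved together from library to library. Hbegf was the gene most like Areg and Areg the gene most like Hbegf among the named genes tested, by Pearson correlation of log2 CPM. The r was 0.872 over the 10 GC-named libraries and 0.899 over the 6 others (0.943 over all 16, the value used for choosing). Ereg followed them in the GC-named libraries, with r of 0.858 to Areg and 0.806 to Hbegf, but not in the 6 others, where r was -0.596 and -0.622 at 21 to 29 counts of Ereg per library. The highest Areg values, 47.6, 36.7 and 29.2 CPM, were in corn oil/cellulose library 7 and fish oil/pectin libraries 7 and 5, and these also held the highest Hbegf, at 52.7, 46.2 and 37.3 CPM, and the highest Ereg, at 5.27, 4.76 and 3.13 CPM. The next genes in order were Map7d1 and Pde9a for Areg, and Atf3, a stress-induced transcription factor, and Sema3b for Hbegf. In the 6 libraries without the prefix their r was 0.35 for Map7d1, -0.0918 for Pde9a, 0.90 for Atf3 and -0.0513 for Sema3b, so the likeness over 16 libraries was not seen there for Pde9a and Sema3b. Those for Ereg were Pitpnm1, Pde9a and Plekhm2, with r of 0.854 to 0.907 over 16 libraries and 0.0302 to 0.68 in the 6 without the prefix. These genes were picked as the highest of all, share libraries and scaling, and are given as a description.

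**Figure D5:**
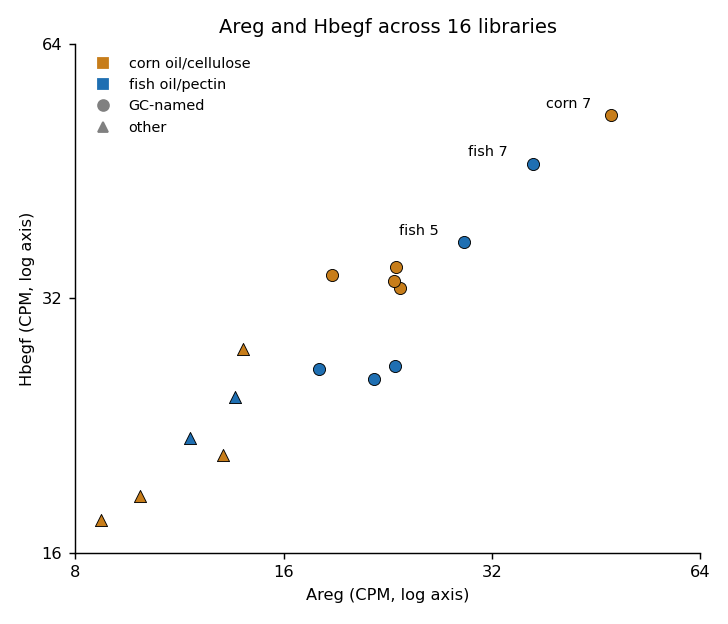
Hbegf against Areg in CPM (both log axes) for the 16 libraries, coloured by diet, with circles for GC-named libraries and triangles for the others. The 6 triangles lie at 8.70 to 13.98 CPM of Areg and the 10 circles at 17.98 to 47.6 CPM, and corn oil/cellulose library 7 is highest on both axes.

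Areg, Ereg, Btc and Epgn are neighbours. On chromosome 5 of GRCm38 they are the 4 protein-coding genes within a span of 375.5 kb, with Epgn at 91027464 to 91035215, Ereg at 91074622 to 91093646 and Areg at 91139599 to 91148432 on the plus strand, and Btc at 91357261 to 91402994 on the minus strand. The neighbours did not move alike, since Areg and Ereg were higher and Btc lower in the GC-named libraries, and Btc alone of the 3 tested passed for diet. Tgfa lies apart, on chromosome 6 at 86195223 to 86275719, plus strand.

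The sequences before the start sites of Areg, the ligand that separated the name forms, and Tgfa, the ligand that separated the diets, are shown to set their promoters side by side. They are the 250 bases before the RefSeq start (build GRCm38.p6, both plus strand, 5′ to 3′), and capitals mark matches to the motifs searched.
Areg promoter, chr5:91139349-91139598: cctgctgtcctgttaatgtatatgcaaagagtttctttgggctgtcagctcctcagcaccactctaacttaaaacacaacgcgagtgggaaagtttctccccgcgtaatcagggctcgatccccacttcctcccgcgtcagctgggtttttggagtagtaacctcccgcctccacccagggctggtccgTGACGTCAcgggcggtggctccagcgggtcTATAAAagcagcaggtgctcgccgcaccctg
Tgfa promoter, chr6:86194972-86195221: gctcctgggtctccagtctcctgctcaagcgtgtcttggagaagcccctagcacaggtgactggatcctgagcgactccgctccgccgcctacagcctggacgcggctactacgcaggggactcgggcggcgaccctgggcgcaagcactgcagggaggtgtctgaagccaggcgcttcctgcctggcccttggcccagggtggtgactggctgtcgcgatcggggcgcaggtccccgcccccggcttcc

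The motifs, searched on both strands and not overlapping each other, were the cAMP response element TGACGTCA, the AP-1 site (TGACTCA or TGAGTCA) and the TATA box TATAAA. Areg held the cAMP response element at -61 to -54 and the TATA box at -31 to -26 from the start, and Tgfa held none of the 3. Promoter windows of 300 bases (250 before and 50 after the start) were found in RefSeq for 7 of the 10 members. Of these Egfr, Erbb2, Lrig1 and Btc held none of the motifs either, and Epgn held a TATA box at -86 to -81. Of 32851 windows, 1.79% held the cAMP response element, 5.2% an AP-1 site and 13.6% the TATA box. A match says only that these letters are there.

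Genes around the receptors were read from 5 lists, with 2, 12, 28, 29 and 22 genes tested. Of these 46 passed for diet, and of all genes tested 41.7% passed. Of the other receptor and ligands of the family, Egf fell by 0.53 on the log2 scale (edgeR adjusted p = 0.0265; -0.29, adjusted p = 0.163, with the length trend removed), and Nrg4 did not pass (0.01). Erbb4, Nrg1, Nrg2 and Nrg3 reached at most 1, 4, 2 and 0 counts in any library, so the known ligands of Erbb3 were close to undetected here. Of 12 tested genes that cut or carry the ligand precursors, 2 rose (16.7%) and 1 fell (8.33%), against 21.7% and 20.1% of all genes. Cnih1, a cornichon cargo receptor, rose by 0.29 and the protease Adam15 by 0.21, the protease Adam9 fell by 0.21 on the log2 scale, and the rhomboid protease Rhbdl2 (-0.14) did not pass. Adam17, the main sheddase of Areg, Hbegf and Tgfa, was at -0.07 ± 0.06 (SE, edgeR adjusted p = 0.350).

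The counts below stand against 21.7% of all genes higher and 20.1% lower. Of 28 adaptors and effectors 4 rose (14.3%) and 12 fell (42.9%), with a median of -0.08. The RAS exchange factor Sos2 (-0.55), the docking protein Gab1 (-0.39) and the kinase Braf (-0.34) fell, and the kinase Map2k2 rose by 0.36. With the length trend removed 6 rose and 4 fell, in a fit where 68% of all calls were higher against 51.9% before, and Braf was at -0.04. Of 29 attenuators, which shorten or dampen receptor signalling, 3 rose (10.3%) and 12 fell (41.4%), with a median of -0.26. The ubiquitin ligase Cbl (-0.65), the phosphatase Ptprj (-0.59) and the RAS pathway inhibitor Spred2 (-0.46) fell, and the ubiquitin ligase Stub1 rose by 0.39. With the length trend removed 4 rose and 7 fell, and Cbl (-0.38), Ptprj (-0.40) and Spred2 (-0.42) still passed.

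Of 22 transcripts induced by ERK signalling 10 fell (45.5%) and 1 rose (4.55%) with fish oil/pectin, with a median of -0.28. The transcription factors Egr2 (-1.18 ± 0.18) and Egr3 (-2.14 ± 0.37) and the phosphatases Dusp1 (-0.55 ± 0.11) and Dusp2 (-1.60 ± 0.32) fell, with edgeR adjusted p of 0.000461, 0.000644, 0.00109 and 0.00113. The cyclin gene Ccnd1, named because it was the only member that rose, was at 0.54. With the length trend removed 11 fell and 1 rose. Levels of Egr3 and Dusp2 were low, at 0.673 and 1.20 CPM with corn oil/cellulose and 0.171 and 0.498 CPM with fish oil/pectin. Among the median values of the same list, the GC-named libraries had -0.38 and the others -0.04.

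The same list also differed between the name forms. In the GC-named libraries 15 of the 22 were higher and 2 lower, with a median of 1.23. Over all genes tested 20.2% were higher and 20.3% lower there, with a median of 0.0119. Egr2 was higher by 3.87, Dusp2 by 4.10, Dusp1 by 2.61 and Egr3 by 2.13 on the log2 scale. The 2 lower genes, Etv4 (-0.73) and Etv5 (-0.64), are transcription factors of the ETS family. The higher levels of the 15 genes thus stood in the same libraries as the higher Areg, Ereg and Hbegf. For diet, 10 of the 22 fell and 1 rose. The rest, with Etv4 (0.11) and Etv5 (0.04) among them, and the 3 ligands did not pass.

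The genes most like the other members followed the same rule. For Egfr they were Rfx7, Zkscan8 and Taf2, with r of 0.961 to 0.967 over the 16 libraries, 0.906 to 0.941 in the GC-named and 0.464 to 0.71 in the others. For Erbb2 they were Cables1, Fam161a and Ip6k1 (0.935 to 0.942; 0.927 to 0.96 and 0.933 to 0.984 within the forms). For Erbb3 they were Zfp740, Fbxl20 and Serinc1 (0.954 to 0.966; 0.954 to 0.982 and 0.847 to 0.926), and for Lrig1 Fam13a, Vgll4 and Grhl2 (0.906 to 0.917; 0.84 to 0.907 and 0.59 to 0.915). Grhl2 is a transcription factor of epithelial cells. For Tgfa they were Slc38a2, an amino acid transporter, Dgkh, a diacylglycerol kinase, and Brpf3 (0.957 to 0.963), and within the forms these r were 0.956 to 0.984 in GC-named and 0.858 to 0.988 in the other libraries. For Btc they were Dio3os, BC005561 and Atad2b (0.902 to 0.927; 0.881 to 0.957 and 0.802 to 0.89).

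The other members map to GRCm38 as follows. Egfr lies on chromosome 11 at 16752203 to 16918158 and Erbb2 on chromosome 11 at 98412470 to 98437716, both on the plus strand. Erbb3 lies on chromosome 10 at 128567523 to 128589652 and Lrig1 on chromosome 6 at 94604529 to 94700158, both on the minus strand. Exons of genes on the opposite strand overlap those of Erbb2 by 9 bp (Mien1), Lrig1 by 144 bp (Slc25a26), Ereg by 141 bp (Gm19610) and Tgfa by 118 bp (Gm43917). Since no source used here gives the strand setting of the counting, reads from these stretches may belong to either gene.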

How the data were processed

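Bulk RNA-seq was made from 200 ng of total RNA with a stranded mRNA kit, per the labels' protocols. The authors deposited whole-number read counts per gene symbol, without scaling. The submitters' processing notes name STAR 2.6.0a, the counter HTSeq 0.11.1, and GRCm38. For strand setting and annotation release: not given in the sources used here. Per-sample columns left unused numbered 0. Symbols were matched to the annotation of GRCm38 for coordinates and exon length (98.9% matched), and promoter sequences came from RefSeq.

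Counts were fitted with edgeR 4.0.16 (R 4.3.3; TMM scaling, robust quasi-likelihood test, diet and name form as terms). The filterByExpr function, with its minimum count of 10, kept 14321 genes holding 99.9% of all counts. Log2 fold changes set fish oil/pectin over corn oil/cellulose, adjusted for the name form; CPM and RPKM use TMM-scaled totals and are not. Each standard error is the size of the log2 fold change divided by the root of its F value. The p-values were Benjamini-Hochberg adjusted over all genes tested, with a threshold of 0.05. Effects within each name form and their difference came from a joint fit. Correlations used log2 CPM with a prior count of 2. The exon length trend was removed per library by loess (span 0.3). The scripts were tested on simulated data.

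Libraries are numbered as biological replicates, but nothing says that each came from its own mouse, and p-values then reflect only how these libraries vary, which may be technical. In all 57 pairs of same-diet libraries the counts differed beyond sampling noise, with chi-square values of 8.2 to 141 per degree of freedom (genes of 20 or more counts).

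The members and lists were chosen with earlier results of these data known. Named were all members, up to 4 genes of lowest p in each pathway list, and the 3 genes of highest correlation with each member, leaving out predicted genes. Adam17, Ccnd1, Etv4, Etv5 and some marker genes fall outside this rule and were named after their values were seen. The name form comparison was chosen after the data were seen. Alternatives were other scalings and filters, DESeq2 1.42.0, limma 3.58.1 (voom with quality weights), subsets of the libraries, further covariates, removal of the length trend, a replicate block, and each library left out.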

Additional observations from a re-analysis of the deposited data

Results flagged for a closer look

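In 3 of 20 gene and diet groups examined for a library far from the others, the same library stood out. The rule marks about 1 in 20 groups of normally distributed values. Each diet here mixed name forms between which several members differ, so that rate need not hold. Corn oil/cellulose library 7 held Areg at 47.6 CPM, with the next library at 23.6 CPM. It held Ereg at 5.27 CPM against 2.42 CPM in the next, and Hbegf at 52.7 CPM against 34.9 CPM. Across the GC-named libraries, to which it belongs, the 3 genes correlated with each other (r of 0.806 to 0.872, n = 10), so these are not independent. T and NK cell markers summed to 31.5 CPM in this library, the lowest of the GC-named corn oil/cellulose libraries. Its Egfr (47.2 CPM) and Btc (6.92 CPM) were inside the range of the other corn oil/cellulose libraries, and its Tgfa (46.1 CPM) was the highest of them.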

How the results depend on the processing

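Main counts were 5979 genes, 5 members and 46 pathway list genes changed by diet, 0 members whose diet effect differed between name forms (2 at an unadjusted p below 0.05) and 7 members differing between the forms. They became 3454, 3 and 28 with a replicate block, 900, 1 and 7 in libraries without the prefix alone, and 2250, 2 and 22 in the lower-numbered libraries (by library name) alone. Erbb3 and Tgfa passed in these lower-numbered libraries (edgeR adjusted p = 0.0394 and 0.0494). Egfr (adjusted p = 0.0979), Erbb2 (adjusted p = 0.0520) and Btc (adjusted p = 0.0855) did not pass there. With the non-epithelial score the counts were 2, 0 and 0, and at a threshold of 0.01 there were 3589 genes and 3 members. Members changed by diet numbered 3 without fish oil/pectin libraries 6 and 7 (4327 of 14247 genes), 3 with the length trend removed (4780 of 14321) and 2 with that in GC-named libraries alone (3992 of 13735). Total-count scaling gave 2 members whose diet effect differed between forms, Egfr (-0.46, adjusted p = 0.0354) and Lrig1 (-0.58, adjusted p = 0.0314). In the corn oil/cellulose libraries alone 3 members differed between forms. Leaving out each library gave 5078 to 6065 genes, 4 to 5 members, 40 to 47 list genes, 0 to 1 members with different diet effects and 4 to 7 differing between forms. Calls that were higher made up 51.9% of the main fit, 37.3% with total-count scaling and 68% with the length trend removed.

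Directions turned only for values that had not passed, except Egfr, at 0.0018 in the libraries without the prefix alone and 0.018 with the length trend removed. Areg was at 0.12 with no form term, 0.034 with the block, 0.16 without the prefix, 0.23 in the lower series, 0.075 by voom and 0.091 without the 2 libraries highest in Areg. Ereg was at 0.14 with no form term, 0.19 with the block, 0.40 in the lower series, 0.093 by voom, 0.044 without those 2 libraries, 0.051 in GC-named libraries alone, 0.00247 with the trend removed and 0.088 with both. Lrig1 was at 0.19 without the prefix and 0.15 with the score, and Hbegf at 0.14 without the prefix. Leaving out each library gave -0.10 to 0.19 for Areg, -0.21 to 0.24 for Ereg and -0.19 to 0.00757 for Hbegf. The difference between forms was -0.17 to 0.17 for Erbb3 (0.13 with the trend removed) and -0.39 to 0.065 for Areg. The form effect on Tgfa was 0.011 with the trend removed and 0.019 in corn oil/cellulose libraries alone. The causes of these changes were not tested.

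Erbb2 did not pass in 9 settings, Egfr in 7 of the same direction, Btc in 4, Erbb3 in 3 and Tgfa in 2 of 35. For the replicate block, same-numbered libraries correlated in their deviations from diet means at 0.475, 0.417, -0.00907, -0.0678, 0.0365, 0.242 and 0.118 for numbers 1 to 7. Of the 7 fish oil/pectin libraries 1 correlated best with its own number. These deviations still hold the name form, which differs between the diets at numbers 3 and 4. The correlations thus cannot show whether libraries of the same number belong together. Under the block Egfr (adjusted p = 0.0880) and Btc (adjusted p = 0.0770) did not pass. Depth limits Ereg and Btc, with as few as 21 and 50 counts in a library, and Epgn.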
